A study of Caenorhabditis remanei with 28 samples.

Results

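The 150 genes described here were those whose share of the reads varied least over 28 RNA libraries of larvae of the nematode Caenorhabditis remanei. They were chosen from the deposited counts. Counts were divided by the sum of gene counts of their library and scaled to a common library size (plain CPM), genes with a mean between 20 and 300 CPM were kept, and the 150 with the lowest coefficient of variation (CV, the SD over the mean) over all 28 libraries were taken. They made up 3.42% of the 4387 genes in that window of levels, and the files list 25337 gene identifiers in all.

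Each library was made from the poly-A RNA of pooled L1 larvae (the stage that hatches from the egg), with about 100000 animals to a pool. The ancestor was strain PX443 (n = 6, replicates 3 to 8). Derived from it were 3 more populations: the control-selected (n = 8), the heat-selected (n = 8) and the oxidative-selected (n = 6). The last 2 names refer to selection for resistance to heat or to oxidative stress. Each regime was 1 population, so an effect of the regime cannot be told apart from any other difference between the populations. The series places all libraries at 20 °C. The treatment text also names an incubation at 30 °C, and heat and oxidative samples have no temperature in their titles. In every group worms were grown at 20 °C on bacteria, embryos were freed by bleaching, and the hatched larvae spent 20 h in buffer without food before they passed a filter of 20 µm.

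In nematodes such as Caenorhabditis elegans, larvae that hatch without food halt their development at L1. Genes whose mRNA changes little between conditions are commonly used as references, against which other genes are read in quantitative PCR. A sequencing count is a share of a library, so a gene can hold a steady share only in relation to what else the library contains: where a few very abundant transcripts take more of the reads, the shares of the other genes are lower.

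None of the identifiers matched a gene of the RefSeq table of the species, so the members are given by identifier alone. Their functions, sequences and positions are not given here, and neither the larval stage nor the tissue could be checked against marker genes.

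Library totals ranged from 1406684 to 15755610 gene counts with a median of 4875498, and 3 counts were worth between 0.190 and 2.13 CPM. The 5 deepest libraries were all numbered 7 or 8, and the oxidative population had none with these numbers. The 100 most abundant genes took between 38.7% and 44.2% of the counts in the 6 libraries numbered 7 or 8, and between 23.9% and 41.1% in the other 22. Heat replicates 3 to 6 stood apart from the other heat libraries in earlier results of these data. The choice of members and the calls are given with and without both sets of libraries. In whole larvae, fewer cells of a type and less RNA per cell cannot be told apart.

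The members had between 24 and 5232 counts in a library, and none was at 0 in any library. Their mean level ran from 20.2 to 293 CPM with a median of 86.8 CPM, against 48.1 CPM for all genes of the window. The members lay towards the upper end of the window. When the window was divided by level into 4 bins of about 1097 genes, the bins held 12, 22, 42 and 74 members from the lowest to the highest, which is 1.09%, 2.01%, 3.83% and 6.75% of their genes.

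The CV that chose the members ran from 7.49% to 12.5%, with a median of 11.4%; the median of the window was 27.3% and its quartiles were 19.5% and 38.5%. These values are a description, since they were the choice itself. The limit ran through a dense part of the distribution. The last 3 genes inside it were FL81_11933 and FL81_22710, both with a CV of 12.48%, and FL81_08400 with 12.52%. The first 3 outside were FL81_07097 with 12.52% and FL81_24291 and FL81_15158, both with 12.53%.

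**Figure D1:**
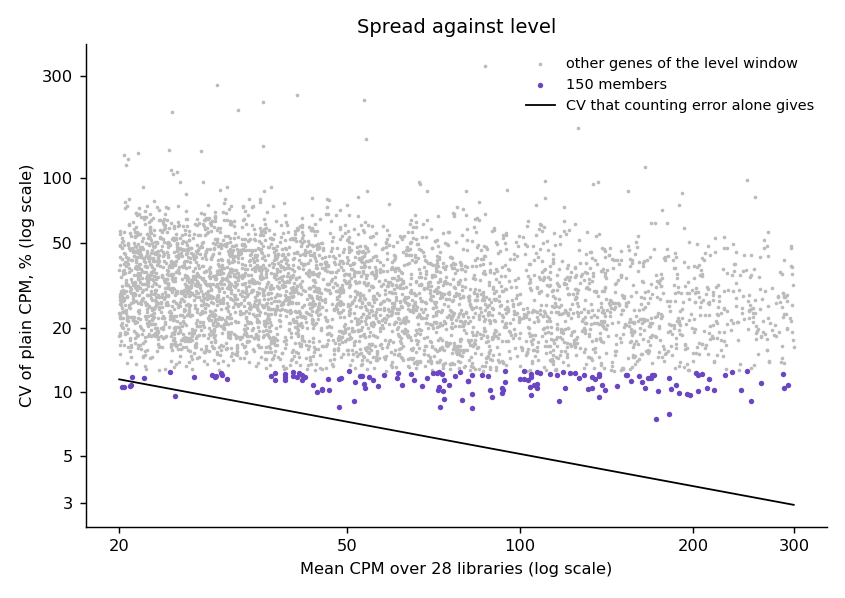
CV of plain CPM over the 28 libraries against mean level, both on log scales, for the 150 members and the other genes of the window; the line is the CV that counting error alone gives at these depths. Members lie at or below 12.5% at every level, and at about 20 CPM they meet the line.

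Part of the spread that remained was the sampling of reads. Counting error at these depths gives a CV of 3.0% to 11.4% for the members, with a median of 5.49%. It made up a median of 25.05% of the members' squared CV, against 6.52% for the window. With it subtracted, the members' median CV was 9.41%. In 25 members counting error made up over 50% of the squared CV. In 5 members, FL81_09639, FL81_02313, FL81_06870, FL81_15415 and FL81_09937, the spread was no larger than counting error gives. All 5 had mean levels between 20.2 and 25.04 CPM, and spread beyond counting error was not detectable in them at this depth. It was detectable in other genes of that level: in the lowest of the 4 bins the median CV was 31.2% over all genes against a counting CV of 10.4%. The 12 members there had a median CV of 11.6% against a counting CV of 10.6%, and of 3.92% with counting error subtracted. Because these members were chosen for a low CV in the same libraries, nothing is read from the contrast. Counting intervals cover counting error only, since the reads carry no molecular identifiers.

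FL81_22143 had the lowest CV of all genes in the window, 7.49% around a mean of 172 CPM. It stood at 168 ± 10.4 CPM in the ancestor (SD, n = 6; lowest 149, median 172, highest 177), 174 ± 9.24 in the control (n = 8; 162, 173, 188), 176 ± 20.0 in heat (n = 8; 155, 172, 215) and 170 ± 7.37 in oxidative larvae (n = 6; 161, 169, 181). The 4 populations overlapped over most of their range, and heat replicate 2 was the highest library. The next lowest CVs were 7.91% for FL81_14144 at 181 CPM, 8.36% for FL81_07259 at 82.3 CPM, 8.47% for FL81_05782 at 48.3 CPM and 8.53% for FL81_02207 at 72.6 CPM. All 5 had their highest library less than 1.5 times as high as their lowest.

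Over all members the ratio of the highest to the lowest of the 28 libraries ran from 1.35 to 1.96 with a median of 1.58. The window had a median of 3.01. All 150 members stayed within a ratio of 2.0 across the libraries, as did 16.3% of the window. The most abundant members were FL81_19697 at 293 CPM, FL81_05591 at 289 CPM and FL81_09214 at 287 CPM. The least abundant were FL81_06870 at 20.2 CPM, FL81_02313 at 20.4 CPM and FL81_15415 at 20.9 CPM.

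The choice of members was then repeated without each population in turn, and the spread of the 150 genes so chosen was read in the libraries that had not been used. In the ancestor libraries the genes chosen on the other populations had a median CV of 11.99%, against 24.7% for the window. In the control libraries the medians were 13.1% and 26.9%, in the heat libraries 13.4% and 27.6%, and in the oxidative libraries 7.02% and 13.3%. Of the 150 genes chosen, 149, 148, 149 and 144 lay below the window's median CV in the left-out ancestor, control, heat and oxidative libraries. Among the 10% of window genes with the lowest CV lay 46.7%, 47.3%, 48.7% and 42.7% of them. These values describe plain CPM within this experiment. The chosen genes and the window were not matched for level. Over the 28 libraries the median CV of all genes fell from 31.2% in the lowest level bin to 23.2% in the highest.

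**Figure D2:**
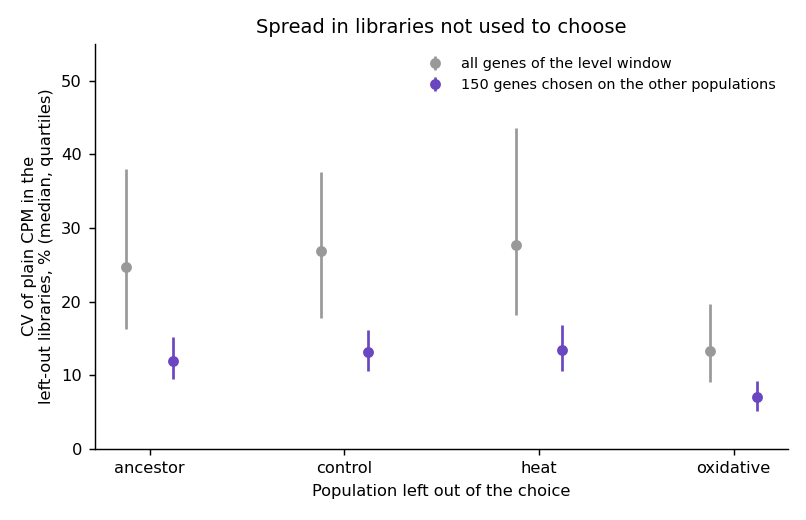
CV of plain CPM, in percent, within each population when that population was left out of the choice, as the median (point) and quartiles (line) over all genes of the window and over the 150 genes chosen on the other 3 populations. In each of the 4 populations the chosen genes have the lower median, 7.02% to 13.4% against 13.3% to 27.6% for the window. The sets were not matched for level.

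The level of the left-out population was also closer for the chosen genes. The median distance of its mean from the mean of the other populations was 0.06, 0.08, 0.08 and 0.16 on the log2 scale for ancestor, control, heat and oxidative larvae, against 0.12, 0.15, 0.11 and 0.25 for the window. The oxidative population lay farthest in both sets. When replicates 7 and 8 were left out of the choice, the genes chosen stood at a median of -0.09 (log2) in those 6 libraries relative to the other 16 of the same 3 populations, and the window at -0.37. Of the 150 chosen, 50 were higher in replicates 7 and 8, as were 940 of the 4483 genes in the window of that choice.

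The scale on which the genes were steady decided which genes were chosen. Plain CPM divides by all gene counts of a library. The trimmed mean of M values (TMM) of edgeR instead sets the scale by the typical gene, and multiplies the library size by a factor. These factors ran from 0.698 in control replicate 7, with 15447168 gene counts and 44.2% of them in the 100 most abundant genes, to 1.46 in heat replicate 1, with 1555582 and 23.9%. Depth, the share of the most abundant genes and the factor moved together between these libraries, and their parts in the result were not tested.

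In control replicate 7 the median gene of the window stood at 0.700 of its own mean over the libraries on plain CPM, and the median member at 0.988. In heat replicate 1 the window stood at 1.29 and the members at 0.918. The members thus held their share of all reads where the typical gene did not. Over the 28 libraries the median relative level had a CV of 3.29% for the members and 15.3% for the window on plain CPM, and of 17.7% and 3.59% on TMM-scaled CPM. Both sets of values are descriptions, because the choice fixed the members on the first scale and TMM is built to centre the typical gene on the second.

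On TMM-scaled CPM the members stood high or low together. The choice made this so, since genes steady on plain CPM are all divided by the same factor of a library. The median member stood at 1.40 of its own mean in control replicate 7, where 150 of 150 members were above their mean, and at 0.620 in heat replicate 1, where 0 were. Ancestor replicate 8 also had 150 above, at a median of 1.30. Ancestor replicate 5 and control replicate 2 had 0 above, at 0.754 and 0.774. Of the 4387 genes of the window, 2276 were above their mean in control replicate 7 and 1850 in heat replicate 1.

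**Figure D3:**
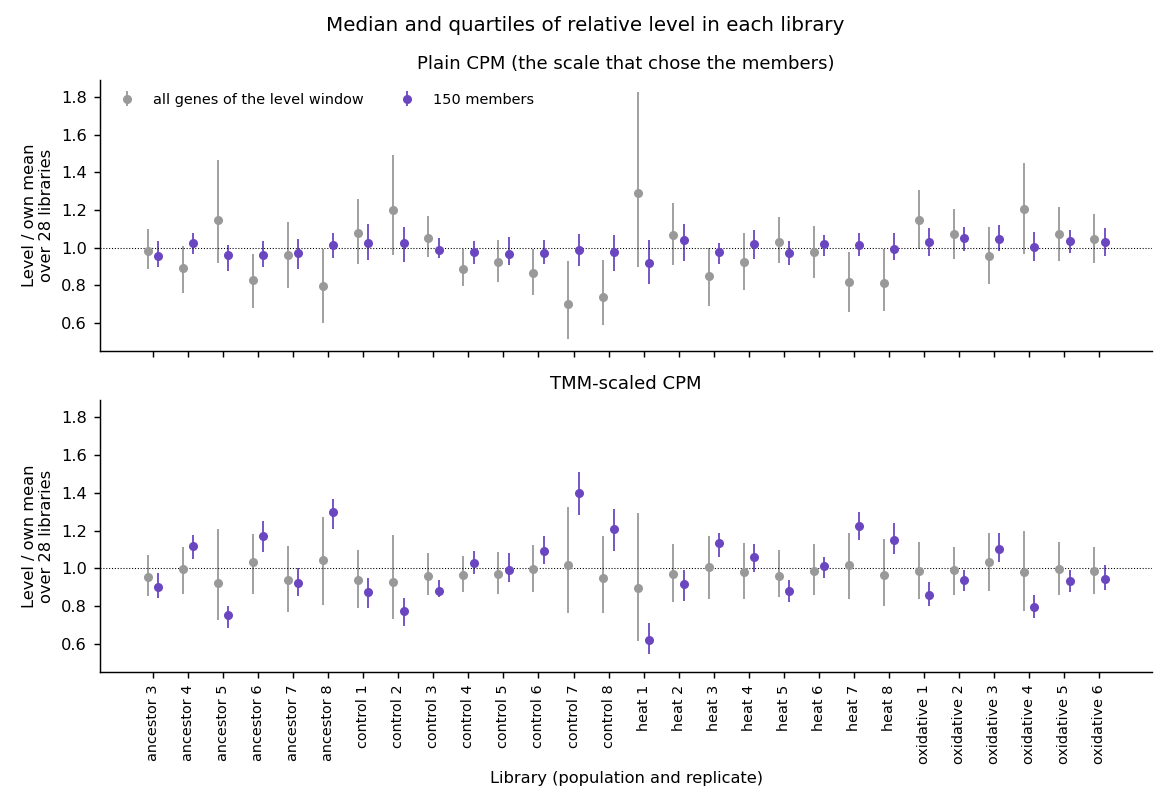
Level in each of the 28 libraries relative to each gene's own mean, as the median (point) and quartiles (line) over the 150 members and all genes of the window, on plain CPM (top) and TMM-scaled CPM (bottom). The members' medians stay between 0.918 and 1.050 on plain CPM and spread from 0.620 to 1.40 on TMM-scaled CPM, while the window does the reverse.

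The CV of all 150 members was higher on TMM-scaled than on plain CPM. On TMM their median was 20.5%, and they ran from 12.7% for FL81_03649 to 28.4% for FL81_16704. In the window the median on TMM was 24.0%, and 63.4% of genes had a lower CV there than on plain CPM. FL81_22143, the lowest of all on plain CPM, had a CV of 16.9% on TMM and was number 763 of 4339 in that order. The members ranked between 172 and 2864 with a median of 1486, and 40 of them were among the first 1000.

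The 150 genes chosen in the same way on TMM-scaled CPM shared 0 genes with the members. Their CV was 11.3% in the median on TMM and 21.1% on plain CPM. A choice by the larger of the 2 CVs, added after seeing the data, took 27 members and 28 of the genes chosen on TMM, and its limit was 16.9%. Median-of-ratios scaling also left 0 members. The name "most stable" therefore holds for the share of all gene counts, and the members were not the steadiest genes relative to the typical gene. On TMM 126 of the 150 still had a CV below 23.9%, the median of the window chosen on that scale. That CV was read in the libraries that chose the members. In left-out libraries the genes chosen on plain CPM had median TMM CVs of 22.4%, 20.3%, 22.2% and 12.7% in ancestor, control, heat and oxidative larvae. Of the 150, 3, 30, 13 and 15 had a lower CV there on TMM. For the window the median TMM CVs were 24.1%, 22.2%, 24.6% and 13.3% in the same order. A lower CV on TMM was found for 55.6%, 65.6%, 59.5% and 55.1% of the window's genes.

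**Figure D4:**
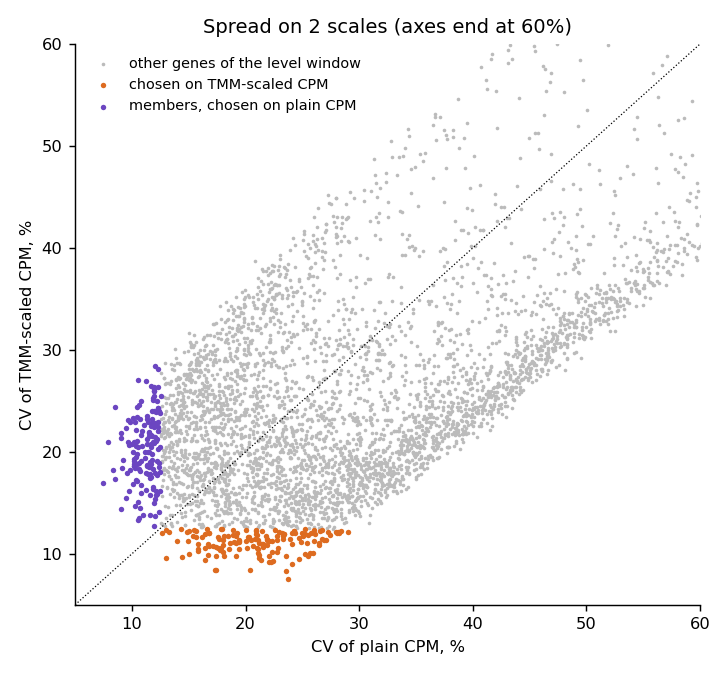
CV over the 28 libraries on TMM-scaled CPM against CV on plain CPM, both in percent and ending at 60%, for the members, the 150 genes chosen on TMM-scaled CPM and the other genes of the window; the dotted line marks equal values. All members lie above the line, at a median of 20.5% on TMM, and the genes chosen on TMM lie below it.

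On plain CPM, the scale that chose the members, the means of the 4 populations lay within a ratio of 1.01 to 1.31, with a median of 1.13 against 1.30 for the window. Of the members, 51 had all population means within a ratio of 1.1 (6.63% of the window) and 129 within 1.2 (27.4%). The oxidative population had the highest mean in 75 members, the control in 34, heat in 32 and the ancestor in 9. It also had the highest mean in 57.6% of the window, where the control had 16.3%, heat 19.4% and the ancestor 6.61%. The lowest mean was the ancestor's in 46 members, the control's in 39, that of heat in 34 and the oxidative population's in 31. In that order the shares of the window were 28.6%, 34.9%, 16.4% and 20.2%.

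FL81_19487 had the smallest ratio, 1.01. It stood at 21.8 ± 1.94 CPM in the ancestor (19.1, 21.9 and 24.5 as lowest, median and highest), 22.2 ± 2.89 in the control (18.1, 22.6, 26.5), 22.1 ± 2.96 in heat (19.3, 21.1, 28.4) and 22.1 ± 2.76 in oxidative larvae (18.6, 21.9, 25.8). Each population's range held the means of all the others. FL81_09302, with a ratio of 1.03, and FL81_21141, with 1.04, were the next.

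Libraries within a population spread less in oxidative larvae than elsewhere. The members' median CV within a population was 10.4% in the ancestor, 10.8% in the control, 10.995% in heat and 6.73% in oxidative larvae, and that of the window 24.7%, 26.8%, 27.7% and 13.3%. The oxidative libraries had the lowest CV in 60.7% of the members and in 82.2% of the window. This population has no replicates 7 and 8, and its TMM factors also varied least. The CV of the factors was 9.62% in oxidative larvae, against 18.5% in the ancestor, 20.6% in the control and 20.7% in heat. The oxidative libraries held 3103341 to 5754254 gene counts, against 1406684 to 15755610 over all 28. The part of these differences in the lower spread was not tested. The member with the highest CV in a population was FL81_13765 in the ancestor at 21.4%, FL81_05825 in the control at 17.2%, FL81_19326 in heat at 18.9% and FL81_06691 in oxidative larvae at 14.2%. Differences between population means made up a median of 17.4% of the members' variance and 15.8% of the window's. The spread of libraries alone also gives such a share, so these values are a description.

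The members together took between 1.42% (heat replicate 1) and 1.64% (oxidative replicate 3) of the gene counts. Heat replicate 1, the library with the highest TMM factor, was also the lowest library for 39 of the 150 members, and members differed there from their own mean by 14.8% on average. Over all libraries the members' average was between 6.499% and 14.8%. For the genes of the window it was 58.4% in heat replicate 1 and between 13.7% and 58.4% over all libraries. Heat replicate 1 held 1555582 gene counts, against a median of 4875498 over the libraries. The first principal component of the members' levels held 16.4% of their variance and that of the other window genes 54.0%. The median correlation between pairs of genes over the 28 libraries, which share the same depths and scaling, was 0.08 among members and 0.27 among the other genes. Both measures were read from plain CPM of the libraries that chose the members for little spread. They are a description, and nothing is read from the contrast.

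Differences among the populations were tested with edgeR's quasi-likelihood test over all 11952 genes that passed a filter on low counts, with Benjamini-Hochberg adjustment at 0.05. All 150 members passed the filter. The choice used the same libraries and favoured genes with small differences, so the members' counts are printed beside those of all genes and nothing is read from the comparison. With TMM scaling 0 members were called for any difference among the 4 populations (9.88% of all genes tested were called), and 2 had an unadjusted p under 0.05 (23.4% of all genes had). DESeq2 also called 0 (14.1% of all genes), and limma-voom with sample weights called 18 (32.1%).

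For oxidative against control larvae 1 member was called (14.0% of all genes tested), and 21 had an unadjusted p under 0.05 (28.5% of all genes had). DESeq2 called 3 members there (17.0% of all genes) and limma-voom 20 (29.8%). For the other pairs edgeR called 0 members: heat against control (0.761% of all genes), control against ancestor (0.0669%), heat against ancestor (0.41%), oxidative against ancestor (5.55%) and heat against oxidative (8.99%). In that order 0, 0, 0, 6 and 7 members had an unadjusted p under 0.05, beside 8.69%, 3.93%, 5.61%, 19.9% and 23.9% of all genes. DESeq2 called 0 members in each of the 5, and 1.45%, 0.142%, 0.745%, 7.78% and 11.7% of all genes. Members called by limma-voom numbered 1, 0, 0, 16 and 27, beside 3.96%, 0.594%, 1.15%, 23.1% and 26.2% of all genes.

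The member called was FL81_22678, which was lower in oxidative than in control larvae. On TMM-scaled CPM it stood at 83.5 ± 15.5 in the ancestor (lowest 63.8, median 83.4, highest 106), 94.6 ± 26.0 in the control (72.8, 84.2, 140), 85.3 ± 13.9 in heat (62.6, 83.0, 107) and 67.7 ± 4.47 in oxidative larvae (61.4, 69.4, 71.6). All 6 oxidative libraries lay below all 8 control libraries, and they overlapped those of the ancestor and of heat. The log2 fold change was -0.49 (SE 0.15, edgeR adjusted p = 0.0289, n = 6 and 8).

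On plain CPM the same member stood at 79.1 ± 9.90 in the ancestor, 89.0 ± 12.3 in the control (75.3, 88.8, 105), 84.1 ± 4.79 in heat and 74.2 ± 3.81 in oxidative larvae (66.7, 75.8, 76.7). There the oxidative and control libraries overlapped, and the log2 fold change of -0.26 had an edgeR adjusted p of 0.0750. Without control replicate 7 the change on TMM was -0.39, without replicates 7 and 8 it was -0.25, and neither passed. Without heat replicates 3 to 6 it was -0.50 and did not pass either, nor did it without control replicate 8 or oxidative replicate 1, 2, 4 or 5, where it lay between -0.49 and -0.40.

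With library sizes left as the total gene counts, which is the scale of the choice, edgeR called 5 members for any difference (10.3% of all genes tested). For oxidative against control larvae 8 members were higher (9.6% of all genes were) and 1 was lower (4.14%). For oxidative against ancestor 3 were higher (4.03%), and for heat against oxidative 6 were lower in heat larvae (4.66%). The other 3 pairs gave 0 members, namely heat against control (0.82% of all genes called), control against ancestor (0.0167%) and heat against ancestor (0.343%). In these 3 pairs 12, 2 and 3 members had an unadjusted p under 0.05, beside 8.26%, 3.46% and 5.196% of all genes. These 18 calls belonged to 15 members, each involved the oxidative population, and oxidative larvae were the higher in 17. Among all genes tested, oxidative larvae were the higher in 1147 calls and the lower in 495 against the control. Against the ancestor these numbers were 482 and 246, and against heat 557 and 430. The 3 comparisons share the oxidative libraries. None of the 18 calls passed with TMM scaling, where all kept their sign, and the changes called were small, from 0.25 to 0.39 in size on the log2 scale.

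FL81_22710 had the largest of these changes against the control, and was among the 3 members with the largest ratios of population means. On plain CPM it stood at 90.1 ± 4.30 in the ancestor (82.6, 91.9, 93.5), 85.6 ± 7.99 in the control (69.9, 88.0, 93.9), 92.1 ± 7.20 in heat (81.0, 93.7, 101) and 112 ± 6.71 in oxidative larvae (100.2, 113, 119). The oxidative libraries lay above all ancestor and control libraries and overlapped those of heat. The log2 fold change against the control was 0.39 (SE 0.08, edgeR adjusted p = 0.00248) with total counts as library sizes, and 0.17 (SE 0.15, edgeR adjusted p = 0.481) with TMM.

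FL81_08232 was at 65.6 ± 6.26 CPM in the control (57.7, 64.0, 74.6) and 85.3 ± 3.66 in oxidative larvae (79.9, 85.8, 89.2), with no overlap. Its log2 fold change was 0.38 (edgeR adjusted p = 0.00352), and 0.17 with TMM. FL81_08517, named after its values were seen, was at 156 ± 10.5 in the ancestor, 156 ± 8.71 in the control, 173 ± 13.6 in heat and 196 ± 12.8 CPM in oxidative larvae, and its change of 0.34 against the control (edgeR adjusted p = 0.00382) was 0.13 with TMM. FL81_07995 was the member lower in oxidative than in control larvae, at 148 ± 13.7 against 181 ± 17.0 CPM, with a log2 fold change of -0.30 (edgeR adjusted p = 0.0327) and of -0.52 with TMM (edgeR adjusted p = 0.05003). It too was named after its values were seen.

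FL81_14623 separated heat from oxidative larvae. It stood at 107 ± 7.11 CPM in the ancestor (94.1, 107, 114), 105 ± 12.8 in the control (75.7, 109, 115), 95.3 ± 5.54 in heat (86.1, 96.1, 102) and 125 ± 4.49 in oxidative larvae (118, 125, 130). All oxidative libraries lay above all others. Heat larvae were lower than oxidative larvae by a log2 fold change of -0.39 with total counts as library sizes (SE 0.09, edgeR adjusted p = 0.00520), and -0.24 with TMM (SE 0.12, edgeR adjusted p = 0.217). FL81_03638, named after its values were seen, was at 204 ± 16.0 CPM in heat and 265 ± 20.3 in oxidative larvae, with a change of -0.38 (edgeR adjusted p = 0.00424) that was -0.22 with TMM.

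**Figure D5:**
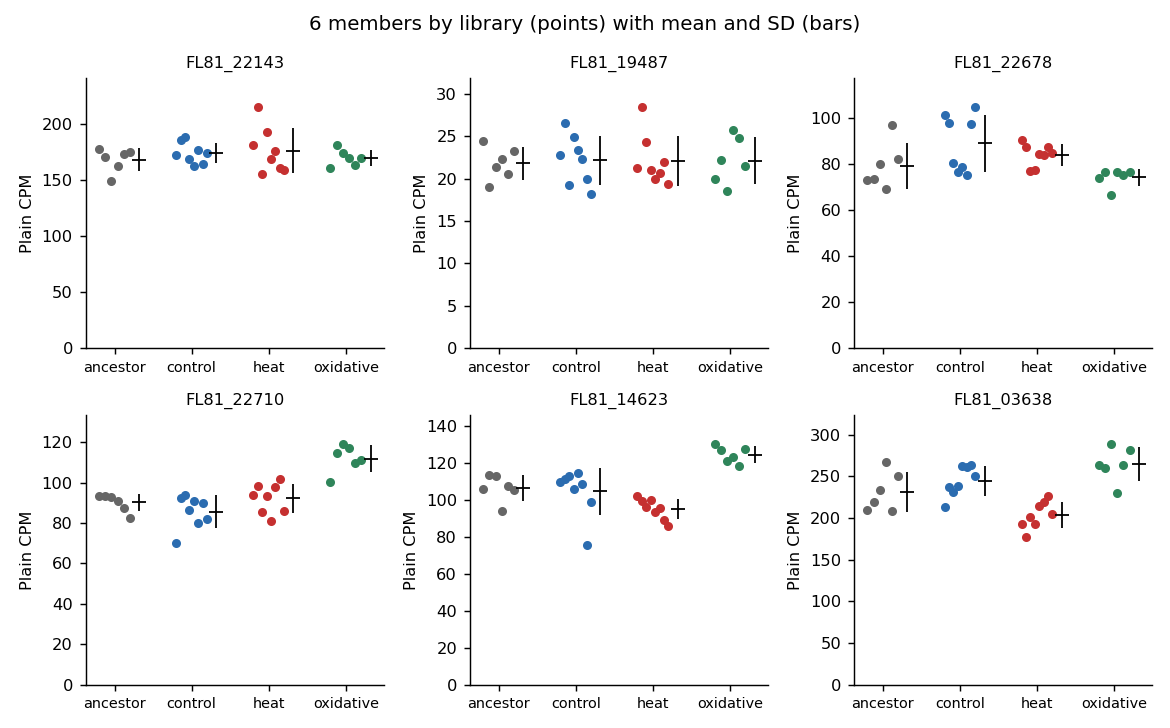
Plain CPM in each library (points) with the mean and SD (bars) of 6 members in the 4 populations: FL81_22143 (lowest CV), FL81_19487 (smallest ratio of population means), FL81_22678 (the call with TMM) and FL81_22710, FL81_14623 and FL81_03638 (calls with total counts as library sizes). Oxidative libraries lie above the control libraries for FL81_22710 and FL81_14623 and overlap them for FL81_22678.

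Libraries of a pair of populations did not overlap on plain CPM for 7 members in oxidative against control larvae, all higher in oxidative larvae (5.47% of all genes tested), and for 11 in oxidative against ancestor, again all higher (5.16%). For heat against oxidative, FL81_22012 and FL81_22678 were higher in heat larvae (1.3%) and 4 were lower (3.16%), namely FL81_03903, FL81_14868, FL81_14623 and FL81_03638. No member was without overlap for heat against control (0.117%), control against ancestor (0.0753%) or heat against ancestor (0.192%). On TMM-scaled CPM the 1 member without overlap was FL81_22678 in oxidative against control larvae (2.18%). The 2 genes higher in heat larvae, FL81_03903, FL81_14868 and FL81_03638 were named here after their values were seen.

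Library sizes shift the fold changes of all genes alike, so the members' medians are given beside those of all genes tested and carry no direction of their own. For oxidative against control the median log2 fold change was 0.06 for the members and 0.16 for all genes with total counts as library sizes, and -0.15 and -0.03 with TMM. Without replicates 7 and 8, which the oxidative population lacks, the medians were 0.05 and 0.03 with total counts and -0.02 for both with TMM. With TMM and the replicate number as a block, both medians were -0.03.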

How the data were processed

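RNA of 28 pools of L1 larvae was analysed. The authors deposited raw counts of reads per gene identifier for each library. The aligner was GSNAP and the counter HTSeq, per the submitters' processing notes. Build, annotation and strand use: not given in the sources used here. Where genes overlap on opposite strands, their reads may therefore be mixed. The 5 summary lines were left out of library sizes; reads outside genes made up 10.6% to 39.1% of a library and unaligned reads 15.7% to 37.5%. No pair of libraries held identical values.

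Plain CPM and CVs were computed with Python 3.11.15. Tests used R 4.3.3 and edgeR 4.0.16 (filterByExpr with a minimum count of 10, TMM, a quasi-likelihood fit with 1 coefficient per population over all 28 libraries, 6 pairs and a test of any difference, Benjamini-Hochberg adjustment). DESeq2 1.42.0, limma 3.58.1 (voom with sample weights), other scalings, no filter, a replicate block and left-out libraries were alternatives. The script was tested on simulated data. Whether replicates were grown apart is not said in the labels, and the p-values measure only how these libraries spread, possibly for technical reasons.

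Members and lists were chosen with earlier results of these data known. Named by rule were the members with the 5 lowest CVs, the 3 highest and 3 lowest means, those beside the CV limit, up to 2 called each way per pair, the 3 largest and 3 smallest ratios of population means, and the highest CV in each population. FL81_08517, FL81_07995, FL81_03638 and members named beside a count or as an extreme fall outside it and were chosen after their values were seen.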

Additional observations from a re-analysis of the deposited data

Results flagged for a closer look

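The groups examined numbered 120: the genes named by rule, FL81_08517, FL81_03638 and the members' summed share, in each of the 4 populations. In 9 of them a library stood far from the others of its population. About 1 in 20 would by chance in independent groups that were not selected. Some of these genes were named for their spread and all share the same libraries, so nothing is read from the count. FL81_11933 was at 192 CPM in heat replicate 1 (262 to 304 in the other heat libraries), and FL81_19697 at 205 CPM there (266 to 316). FL81_06870 was at 24.4 CPM in the same library (19.2 to 21.4). In control replicate 7, FL81_14623 was at 75.7 CPM (99.1 to 115) and FL81_19326 at 85.8 CPM (105 to 120). FL81_19326 was also at 91.8 CPM in oxidative replicate 4 (111 to 122). FL81_22678 was at 66.7 CPM in oxidative replicate 3 (73.8 to 76.7). FL81_02313 was at 24.9 CPM in ancestor replicate 5 (18.2 to 20.6), and FL81_15415 at 25.9 CPM in heat replicate 4 (21.02 to 22.5). Heat replicate 1 and control replicate 7, with the highest and the lowest TMM factor, hold 5 of the 9.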

How the results depend on the processing

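The count of members called, 1 for oxidative against control and 0 elsewhere, depended on the scaling and the tool. In the order any difference, heat against control, oxidative against control, oxidative against ancestor and heat against oxidative, it was 5, 0, 9, 3 and 6 with total counts as library sizes (10.3%, 0.820%, 13.7%, 6.09% and 8.26% of all genes tested), and 2, 0, 5, 0 and 3 with library sizes from the members, which is circular (9.35%, 0.879%, 12.5%, 5.10% and 7.89%). It was 0, 0, 3, 0 and 0 with DESeq2 (14.1%, 1.45%, 17.0%, 7.78% and 11.7%), and 18, 1, 20, 16 and 27 with limma-voom (32.1%, 3.96%, 29.8%, 23.1% and 26.2%). It was 0 in each without a filter (4.53%, 0.359%, 6.22%, 2.24% and 4.02%), without replicates 7 and 8 (11.1%, 2.03%, 11.2%, 4.36% and 8.40%) and without heat replicates 3 to 6 (7.30%, 0.00816%, 12.4%, 4.80% and 5.40%). Control and heat against ancestor stayed at 0 under every setting run. Few of all genes were called there either, 0.0167% to 0.594% for control and 0.0245% to 1.37% for heat against ancestor. Settings added after seeing the data combined total counts with leaving out replicates 7 and 8 (7, 0, 7, 2 and 6 members, beside 11.5%, 1.88%, 11.3%, 5.0% and 8.49% of all genes) or heat replicates 3 to 6 (3, 0, 8, 1 and 3, beside 7.66%, 0.0653%, 12.4%, 5.19% and 4.69%).

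The replicate block gave 0, 0, 1, 0 and 0 members (11.8%, 1.51%, 14.3%, 5.65% and 10.3% of all genes), and with total counts 7, 0, 9, 3 and 5 (12.5%, 1.92%, 14.5%, 6.28% and 10.3%). The labels do not say that numbers pair the libraries, and the condition for it, a correlation of deviations over 0.1 in every pair with the same number, was not met. It was met in 7 of 8 pairs of control and heat, 5 of 6 of ancestor and control, 4 of 6 of ancestor and heat, and in 1 of 4, 2 of 6 and 2 of 6 pairs of the oxidative population with ancestor, control and heat. All 36 ran from -0.54 to 0.75. The block moved the members' median log2 fold change from -0.15 to -0.03 for oxidative against control, from -0.14 to 0.05 for oxidative against ancestor and from 0.12 to -0.0044 for heat against oxidative.

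With single libraries left out, oxidative against control gave 0 to 6 members (9.28% to 17.5% of all genes). It stayed at 1 in 16 of 28. It was 0 without control replicate 7 or 8 or oxidative replicate 1, 2, 4 or 5, and 2 to 6 in the rest. Heat against oxidative gave 0 to 3 (6.16% to 14.5%; 3 without heat replicate 1). Counts stayed at 0 for any difference (6.63% to 14.1%), oxidative against ancestor (3.31% to 8.11%) and heat against control (0.36% to 1.43%). FL81_22678 kept its sign, from -0.53 to -0.39 (edgeR adjusted p from 0.0176 to 0.102), and passed in 22 of 28. No named result reversed.

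The choice kept 0 of 150 members on TMM or median-of-ratios scaling, 27 on both scales at once, 99 with the spread within populations alone, 89 without replicates 7 and 8 and 75 with the 5 deepest libraries per population. It kept 136 with the SD of log2 CPM, 110 without counting error, 131 and 119 with wider windows, 121 without heat replicates 3 to 6, and 124 (without heat replicate 1) to 146 with single libraries left out. The members' median CV was 20.5% on TMM, 11.03% without replicates 7 and 8 and 11.3% without heat replicates 3 to 6. The cause of these shifts was not tested. In 5 members, chosen for a low CV in these libraries, the spread did not exceed counting error at this depth. Relative counts give no amount of RNA per larva.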
